A study of Mus musculus with 6 samples.

Results

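The genes described here are 10 classical cadherins that spinal neurons are known to use, namely Cdh2, Cdh4, Cdh6, Cdh7, Cdh8, Cdh9, Cdh10, Cdh11, Cdh12 and Cdh20. They were taken by gene symbol from tables of 39174 genes, by a rule that uses no measured value. Their RNA was read by RNA-seq in 6 libraries from primary cultures of mouse motoneurons, strain CD-1. Of these, 3 were of the genotype Nmd+/+ and 3 of the genotype Nmd-/-, which carries the neuromuscular degeneration allele of the helicase gene Ighmbp2 on both chromosomes. Levels are FPKM, fragments scaled to transcript length and to library depth, so they can be compared between genes of different length. No treatment, age or sex is given in the labels, nor whether libraries of a genotype came from separate animals or cultures, so p-values measure only the spread between these 6 libraries, and that spread may be technical.

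Classical cadherins are transmembrane adhesion proteins that bind cadherins of a neighbouring cell through the outermost of their extracellular domains and bind catenins inside the cell. Type I cadherins such as N-cadherin hold epithelia and neuroepithelia together. Type II cadherins are expressed in combinations that differ between brain nuclei and, in the embryonic spinal cord, between motor pools, the groups of motoneurons that supply single muscles. The combination of cadherins that a motoneuron carries is known to help its pool sort out from its neighbours. Type II cadherins bind within specificity groups, one of which holds Cdh6, Cdh9 and Cdh10 and another Cdh8 and Cdh11.

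The difference between the types can be read in the coding sequence. Cadherins are made with a propeptide, and after its removal the new amino terminus swaps a strand with the partner cadherin, which a type I protein anchors with 1 tryptophan and a type II protein with 2. The 36 coding bases that follow the propeptide cleavage site are shown for the 9 members whose transcripts were used (GENCODE M21 transcripts, GRCm38). Each reads 5′ to 3′ on the coding strand, and capitals mark tryptophan codons.
Cdh4: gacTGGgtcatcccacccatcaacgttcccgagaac
Cdh6: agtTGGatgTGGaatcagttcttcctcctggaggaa
Cdh9: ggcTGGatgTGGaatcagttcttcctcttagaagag
Cdh10: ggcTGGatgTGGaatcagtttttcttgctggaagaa
Cdh8: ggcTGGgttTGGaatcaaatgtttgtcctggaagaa
Cdh11: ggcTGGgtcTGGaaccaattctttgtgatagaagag
Cdh7: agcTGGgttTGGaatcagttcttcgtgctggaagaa
Cdh12: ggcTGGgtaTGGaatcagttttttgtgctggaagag
Cdh20: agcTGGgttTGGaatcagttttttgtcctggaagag
The cleavage site was searched for as a basic motif followed by a tryptophan at codon 2 of the mature protein. That tryptophan was thus fixed by the search in all 9 genes, and only the codons after it were free to differ. At codon 4 the 8 type II genes have a further tryptophan, and the type I gene Cdh4 has none. The stretch of Cdh4 lies on the plus strand at chr2:179797560-179797595 in exon 4 of 16. That of Cdh8 lies on the minus strand at chr8:99400759-99400794 in exon 2 of 12, and that of Cdh11 on the minus strand at chr8:102679645-102679680 in exon 3 of 13. That of Cdh10 lies on the plus strand at chr15:18899751-18899786 in exon 2 of 12.

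Over whole coding sequences the closest pairs lay within the specificity groups named above. Of the 36 pairs among these 9 genes, the closest were Cdh6 with Cdh10 (72.3% identical bases), Cdh9 with Cdh10 (71.7%), Cdh6 with Cdh9 (71.5%) and Cdh8 with Cdh11 (70.1%). Cdh7 and Cdh12, named in neither group above, were each closest to Cdh10 (68.0% and 68.3%). The most distant pair was Cdh4 with Cdh12 (62.9%). No run of identical bases shared by transcripts of any pair was longer than 30 bases (Cdh12 with Cdh20). Some related genes shared a chromosome (GRCm38, coordinates counted from 1). Cdh6 (13034200 to 13173639), Cdh9 (16778101 to 16857094), Cdh10 (18818947 to 19014236) and Cdh12 (21111452 to 21589533) lay in this order on chromosome 15. Cdh8 (99024471 to 99416471) and Cdh11 (102632995 to 102785111) both lay on chromosome 8, and Cdh20 (104768529 to 104995481) and Cdh7 (109982431 to 110140157) on chromosome 1. Cdh4 (179442431 to 179899373) lay on chromosome 2 and Cdh2 (16588877 to 16809246) on chromosome 18.

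The genotype labels were checked on the mutated gene, Ighmbp2, and depth was read from the intervals. The intervals that Cufflinks gave were as wide as counting error over 15446384 fragments (Nmd+/+ replicate 2) to 23138152 fragments (Nmd+/+ replicate 1) in a library. Ighmbp2 lay between 1.09 and 1.44 FPKM in the 3 Nmd+/+ libraries and between 0.598 and 0.876 FPKM in the 3 Nmd-/- libraries (limma adjusted p = 0.99973). Of 9 motoneuron markers 8 were matched, and no more than 2 of them, Isl1 and Ret, reached 1 FPKM in any library (at most 1.81 and 3.85 FPKM). The defining markers Chat, Mnx1 and Isl2 did not exceed 0.0692, 0.0247 and 0.0364 FPKM, so these markers do not bear out the label of a motoneuron culture. Markers of all neurons (6 of 6 at 1 FPKM or more in every library), of other spinal neurons and of radial glia were abundant. The libraries numbered 2 of both genotypes stood apart, with 8 fibroblast markers summing to 146 FPKM (Nmd+/+) and 179 FPKM (Nmd-/-), against 3.13 to 4.96 FPKM in the other 4. Each cadherin level below is thus that of a mixed culture, in which fewer cells of a type and less RNA per cell cannot be told apart.

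The cadherin RNA of these cultures was mainly that of N-cadherin. Cdh2 encodes N-cadherin, the type I cadherin of the neuroepithelium and of most neurons. It measured 227, 213 and 189 FPKM in replicates 1 to 3 of Nmd+/+ and 248, 212 and 255 FPKM in those of Nmd-/-. Its mean of 224 FPKM was above that of 97.5% of the 14611 genes tested. Cdh4 encodes R-cadherin, the other type I member, known from retina and brain. It measured 37.9, 25.8 and 34.8 FPKM in Nmd+/+ and 38.1, 31.6 and 33.8 FPKM in Nmd-/-. Cdh2 varied 1.35-fold and Cdh4 1.47-fold between the lowest and the highest of the 6 libraries. Together they made up 72.3%, 73.2% and 67.1% of the summed FPKM of the 10 genes in Nmd+/+ and 74.9%, 74.5% and 75.8% in Nmd-/-. The ranges of this share did not overlap between genotypes, which is given as a description of the sum and was not tested.

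**Figure D1:**
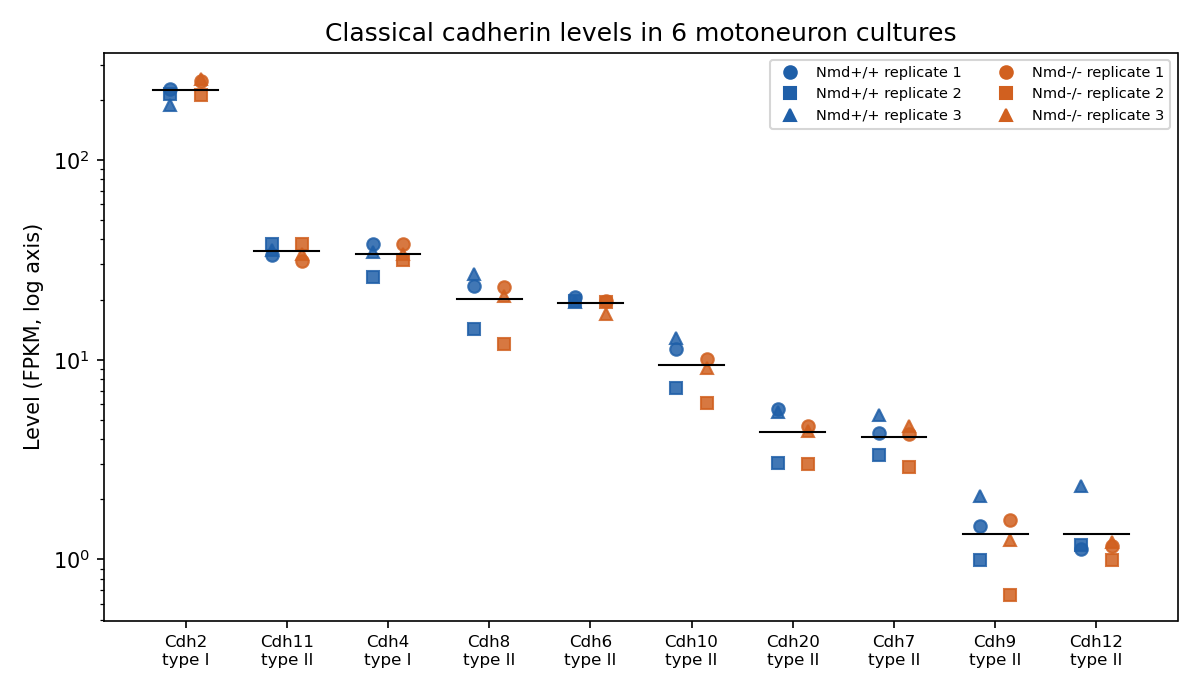
FPKM of the 10 cadherin genes on a log axis, ordered by their mean over the 6 libraries (black line). Blue symbols are Nmd+/+ and orange symbols Nmd-/-, with circles, squares and triangles for replicates 1, 2 and 3. Cdh2 stands 6.40-fold above Cdh11, the next gene, and Cdh9 and Cdh12 lie lowest, near 1 FPKM.

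Among the type II genes Cdh11 was the most abundant. Cdh11 encodes OB-cadherin, known from osteoblasts and mesenchyme and present in developing neurons as well. It measured 33.3, 37.9 and 35.5 FPKM in Nmd+/+ and 31.4, 38.2 and 33.8 FPKM in Nmd-/-. It spanned 1.22-fold, and the highest value of each genotype was in replicate 2. Cdh6 encodes K-cadherin, known from kidney and from neural crest. It measured 20.7, 19.6 and 19.5 FPKM in Nmd+/+ and 19.7, 19.4 and 17.0 FPKM in Nmd-/-, also a span of 1.22-fold. These were the most even members over the 6 libraries.

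Cdh8, a cadherin of synaptic circuits and the nearest relative of Cdh11 by sequence, had almost the same mean as Cdh6 but a wider spread. It measured 23.5, 14.2 and 26.8 FPKM in Nmd+/+ and 23.04, 11.98 and 20.9 FPKM in Nmd-/-. Replicate 2 was the lowest library of each genotype, and the groups overlapped. Cdh10, a neuronal relative of Cdh6 and Cdh9, measured 11.4, 7.20 and 12.8 FPKM in Nmd+/+ and 10.1, 6.09 and 9.09 FPKM in Nmd-/-. Both libraries numbered 2 were again below the other 4.

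Cdh20, known in chick as MN-cadherin and used there to tell motor pools apart, measured 5.66, 3.02 and 5.45 FPKM in Nmd+/+ and 4.65, 2.99 and 4.39 FPKM in Nmd-/-. Cdh7, a cadherin of neural crest and spinal cord, measured 4.31, 3.32 and 5.26 FPKM in Nmd+/+ and 4.23, 2.91 and 4.63 FPKM in Nmd-/-. In both genes replicate 2 was the lowest library of each genotype. Cdh9, known from synapses of the hippocampus and the retina, measured 1.48, 0.993 and 2.08 FPKM in Nmd+/+ and 1.58, 0.666 and 1.25 FPKM in Nmd-/-. Cdh12, a brain cadherin, measured 1.13, 1.18 and 2.33 FPKM in Nmd+/+ and 1.17, 0.991 and 1.22 FPKM in Nmd-/-. Nmd+/+ replicate 3 was the only library in which Cdh12 exceeded 1.22 FPKM. The intervals of these 2 low genes were as wide as counting error over 101 to 554 fragments, against 3111 to 4261 fragments for Cdh2.

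The order of the levels held in every library at some steps of the ladder and was open at others. Cdh2 above Cdh11, Cdh6 above Cdh10, Cdh10 above Cdh20 and Cdh7 above Cdh9 held in 6 of 6 libraries with ranges that did not overlap. Cdh4 was above Cdh8 in 6 of 6 libraries as well, with ranges that overlapped. Cdh11 and Cdh4, Cdh8 and Cdh6, and Cdh20 and Cdh7 differed in mean by 1.04-fold, 1.04-fold and 1.06-fold, with the higher mean ahead in only 4 of 6 libraries each. Cdh9 was above Cdh12 in 3 of 6.

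No cadherin gene passed the test between genotypes. The comparison was Nmd-/- minus Nmd+/+ on log2(FPKM + 1), a scale that understates changes of low genes, in limma fitted over all 14611 genes with a mean of at least 1 FPKM. All 10 members entered, and 0 of 10 had an adjusted p under 0.05 or an unadjusted p under 0.05. Over all genes 0 (0%) were called, and 65 (0.445%) had an unadjusted p under 0.05. The adjusted p was 0.99973 for each member. The 3 values of Nmd-/- overlapped those of Nmd+/+ for all 10 members, where the values of 2.67% of all genes did not overlap (0.91% with Nmd-/- lower and 1.76% with it higher). Exact two-sided permutation tests gave p between 0.3 and 0.8, and 0.1 is the smallest p that 3 against 3 values allow.

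The mean differences had opposite signs in the types, within these errors. The 2 type I genes had higher means in Nmd-/-. Cdh2 averaged 210 ± 19 FPKM in the Nmd+/+ libraries and 238 ± 23 FPKM in the Nmd-/- libraries (SD, n = 3 each), a log2 difference of 0.18 (SE 0.14, 95% interval -0.15 to 0.52). Cdh4 had a log2 difference of 0.08 (SE 0.17), which turned to -0.018 without replicate 2 of both genotypes. All 8 type II genes had lower means in Nmd-/-, from -0.05 (Cdh11, SE 0.13) to -0.27 (Cdh10, SE 0.25) on the log2 scale. Means of neuron markers were lower in Nmd-/- for 6 of 6 markers of all neurons (median log2 difference -0.18). They were lower for 8 of 10 markers of other spinal neurons, with a median of only -0.05. Of 8 markers of radial glia and astrocytes 5 had higher means (median 0.08), near the share over all genes (8189 of 14611). In each of these 3 lists 0 markers passed in limma, and their part in the cadherin differences was not tested. The median over the 10 cadherins was -0.14, with 8 of 10 lower, against a median of 0.02 over all genes, of which 44.0% were lower.

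On the log2(FPKM + 1) scale Cdh10 had the lowest difference of the members, while in ratios of means the low genes Cdh12 (0.730) and Cdh9 (0.768) were below it. Cdh10 averaged 10.5 ± 2.9 FPKM in the Nmd+/+ libraries and 8.42 ± 2.08 FPKM in the Nmd-/- libraries (SD, n = 3 each), or 0.805 times, and the 95% interval of its log2 difference ran from -0.86 to 0.31. Leaving out 1 library moved it between -0.50 (without Nmd+/+ replicate 2) and -0.082 (without Nmd-/- replicate 2), and to -0.12 without Nmd+/+ replicate 3. With the replicate number as a block its standard error fell to 0.11, and it was the only member with an unadjusted p under 0.05 (0.0335, adjusted p = 0.990 in limma), where 4.87% of all genes had one (1.74% with Nmd-/- lower). Cdh8 averaged 21.5 ± 6.5 FPKM in the Nmd+/+ libraries and 18.7 ± 5.9 FPKM in the Nmd-/- libraries (SD, n = 3 each), a log2 difference of -0.20 (SE 0.30). Without Nmd-/- replicate 2 it was 0.076. That of Cdh7 (-0.11) also turned positive without that library, to 0.052, or without Nmd+/+ replicate 3, to 0.02. That of Cdh12 (-0.23) rested on Nmd+/+ replicate 3 and was -0.02 without it. The summed levels of 1 marker list did not overlap between genotypes: the 5 markers of the oligodendrocyte lineage summed to 48.4 to 64.5 FPKM in Nmd+/+ and 27.9 to 47.1 FPKM in Nmd-/-, with 0 of 5 called in limma. Its part was not tested either.

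**Figure D2:**
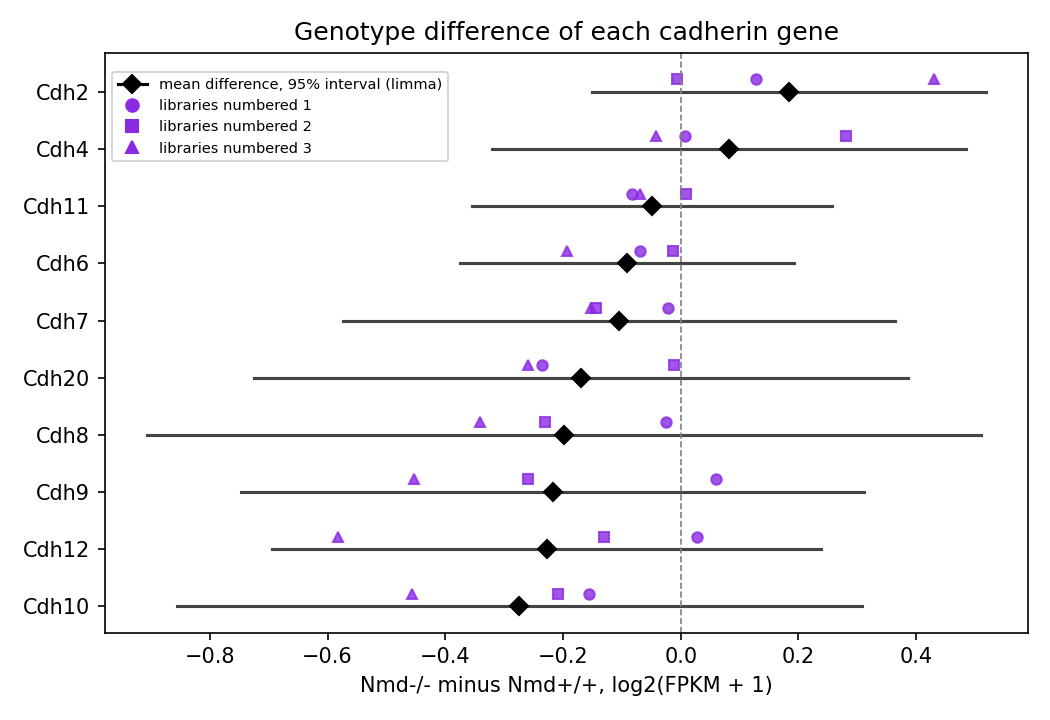
Nmd-/- minus Nmd+/+ on the log2(FPKM + 1) scale for each gene. Black diamonds and bars are the limma estimate and its 95% interval, and violet symbols are the differences between libraries of the same replicate number. All 10 intervals include 0, and the libraries numbered 3 lie farthest to the left for 8 genes.

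Differences between libraries of the same number were widest for number 3. Same-numbered libraries deviated together from their group means over the transcriptome, least so for number 3, so each number was also read as a pair. In pair 1 the Cufflinks intervals of 3 of 10 members did not overlap (10.6% of all genes), with 2 lower in Nmd-/- (5.85%) and 1 higher (4.73%). In pair 2 those of 4 of 10 did not overlap (39.9%), with 3 lower (18.9%) and 1 higher (21.1%). In pair 3 they did not overlap for 8 of 10 (40.1%). Of those, 7 were lower in Nmd-/- (15.5% of all genes) and 1, Cdh2, was higher (24.6%). The widest of these was Cdh12, with 2.33 FPKM in Nmd+/+ against 1.22 FPKM in Nmd-/-. The median difference of the type II genes was -0.05 in pair 1, -0.14 in pair 2 and -0.30 in pair 3, against 0.04 over all genes in pair 3. Beside this, the 6 markers of all neurons summed in pair 3 to 1351 FPKM (Nmd+/+) and 1041 FPKM (Nmd-/-), and the 8 markers of radial glia and astrocytes to 3153 and 4235 FPKM. Their part in the differences of pair 3 was not tested. Cdh6, Cdh7, Cdh8, Cdh10 and Cdh20 were lower in Nmd-/- in 3 of 3 pairs, 5 of 10 members where 10.6% of all genes were. No member was higher in 3 of 3 pairs (14.9% of all genes). Each pair sets 1 library against 1, and its intervals hold no spread between cultures.

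The replicate number separated the cadherin genes more than the genotype did, as it did over all genes (4173 against 0 called of 14611). In the limma F-test of the replicate number beside genotype, 4 of 10 members passed at an adjusted p under 0.05, where 28.6% of all genes did. These were Cdh8 (adjusted p = 0.00382), Cdh10 (0.0115), Cdh20 (0.0165) and Cdh7 (0.0354), all type II. Cdh9 (0.0596), Cdh4 (0.0988), Cdh12 (0.192), Cdh11 (0.330), Cdh2 (0.621) and Cdh6 (0.632) did not pass. Without replicate 2 of both genotypes 0 of 10 passed in limma, and 0 of 10 had an unadjusted p under 0.05, while 2850 of 14536 genes still passed. Without Nmd+/+ replicate 2 alone 2 of 10 passed, with 4211 of 14582 genes. With no filter on low values 0 of 10 and 0 of 27711 genes passed in limma, where 4 members and 6348 genes had an unadjusted p under 0.05.

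**Figure D3:**
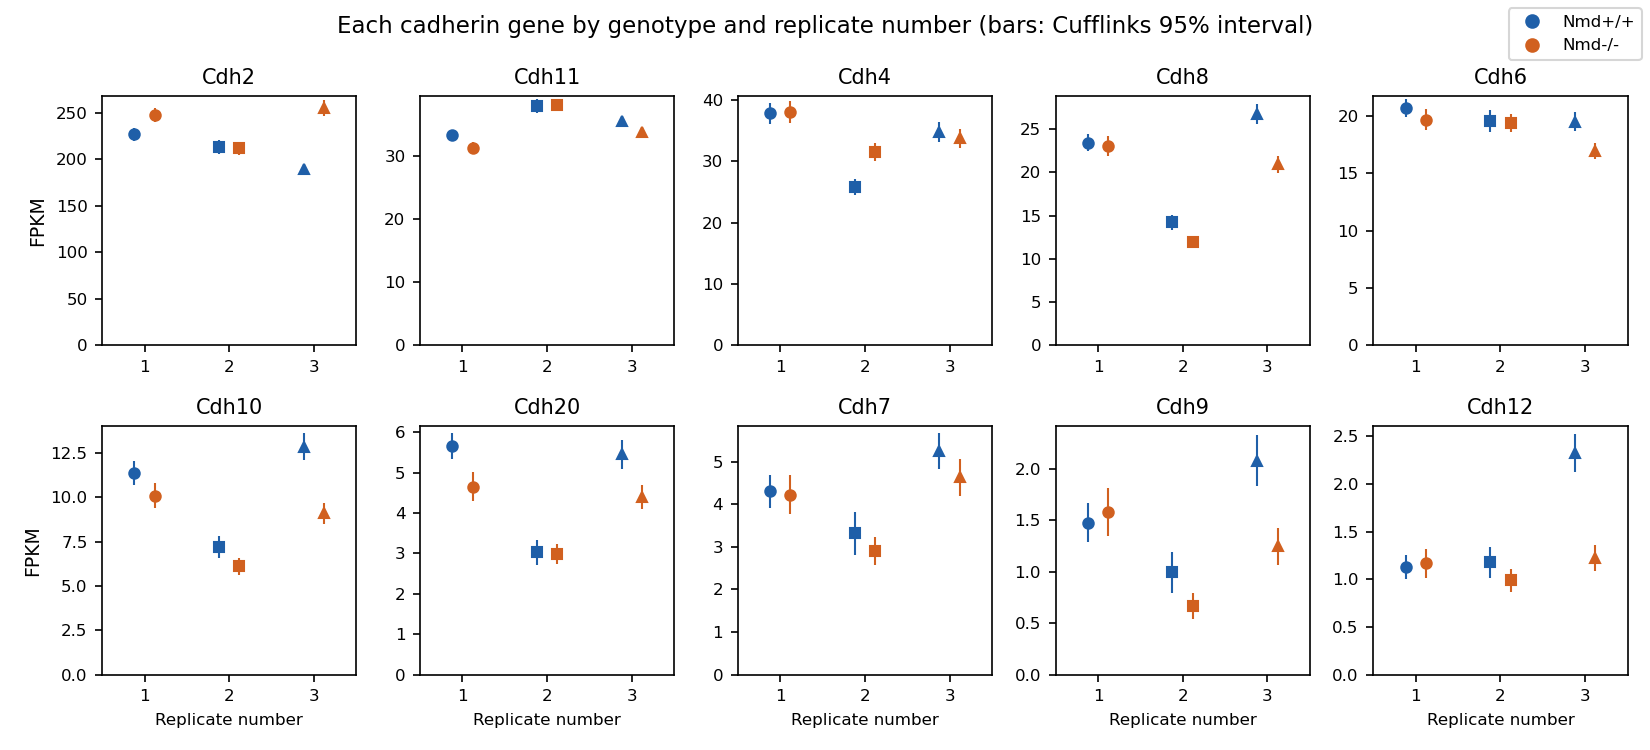
FPKM of each cadherin gene by replicate number, with Nmd+/+ in blue and Nmd-/- in orange. Axes start at 0, and bars are the 95% intervals that Cufflinks gave for each library. Cdh8, Cdh10, Cdh20, Cdh7 and Cdh9 are lowest in both libraries numbered 2, while Cdh6 and Cdh11 are nearly level.

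In the libraries numbered 2 a group of cadherins was low while Cdh11 was not. Both libraries numbered 2 were below the other 4 for Cdh4, Cdh7, Cdh8, Cdh9, Cdh10 and Cdh20, 6 of 10 members where 18.8% of all genes were. Cdh8 in replicate 2 was at 0.566 times the mean of replicates 1 and 3 in Nmd+/+ and at 0.545 times in Nmd-/-. For Cdh10 these ratios were 0.595 and 0.636, for Cdh20 0.545 and 0.662, and for Cdh9 0.559 and 0.471. Cdh7 (0.694 and 0.657) and Cdh4 (0.710 and 0.879) were less low. Cdh11 was the only member above the other 4 libraries in both (20.6% of all genes), by ratios of 1.10 and 1.17. Cdh2, Cdh6 and Cdh12 had no such pattern.

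Markers of neurons moved in the same libraries. The 6 markers of all neurons summed to 687 and 722 FPKM in replicate 2 of Nmd+/+ and Nmd-/-, and to between 1041 and 1406 FPKM in the other 4 libraries. Their range was 687 to 1406 FPKM (Nmd+/+) and 722 to 1311 FPKM (Nmd-/-), with all 6 passing the F-test of replicate number (28.6% of all genes). The 10 markers of other spinal neurons spanned 130 to 287 FPKM (Nmd+/+) and 143 to 271 FPKM (Nmd-/-), with 10 of 10 passing (28.6% of all genes). The 8 fibroblast markers spanned 57.2-fold over the 6 libraries, while Cdh11, known from mesenchyme, spanned 1.22-fold. The part of these cell types in the cadherin values was not tested.

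The levels were also set against the summed neuron markers, a ratio chosen after the values were seen. These markers are themselves low in the libraries numbered 2. Dividing by them favours a narrower spread for genes low there and a wider one for even genes. The ratio is thus a description, and the part of neuron content was not tested. Per 100 FPKM of neuron markers Cdh8 was at 1.67, 2.07 and 1.99 FPKM in Nmd+/+ and 1.76, 1.66 and 2.01 FPKM in Nmd-/-. Its spread over the 6 libraries was 1.25-fold on this scale, against 2.24-fold in FPKM. Cdh20 went from 1.89-fold to 1.24-fold, Cdh10 from 2.11-fold to 1.36-fold and Cdh9 from 3.12-fold to 1.67-fold. Cdh7 (1.81-fold to 1.58-fold) and Cdh12 (2.35-fold to 2.15-fold) narrowed less, and Cdh4, low in both libraries numbered 2, widened from 1.47-fold to 1.70-fold. The evenly expressed genes became uneven, with Cdh11 going from 1.22-fold to 2.33-fold, Cdh2 from 1.35-fold to 2.21-fold and Cdh6 from 1.22-fold to 1.97-fold. On this scale the genotypes overlapped for all 10 members.

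**Figure D4:**
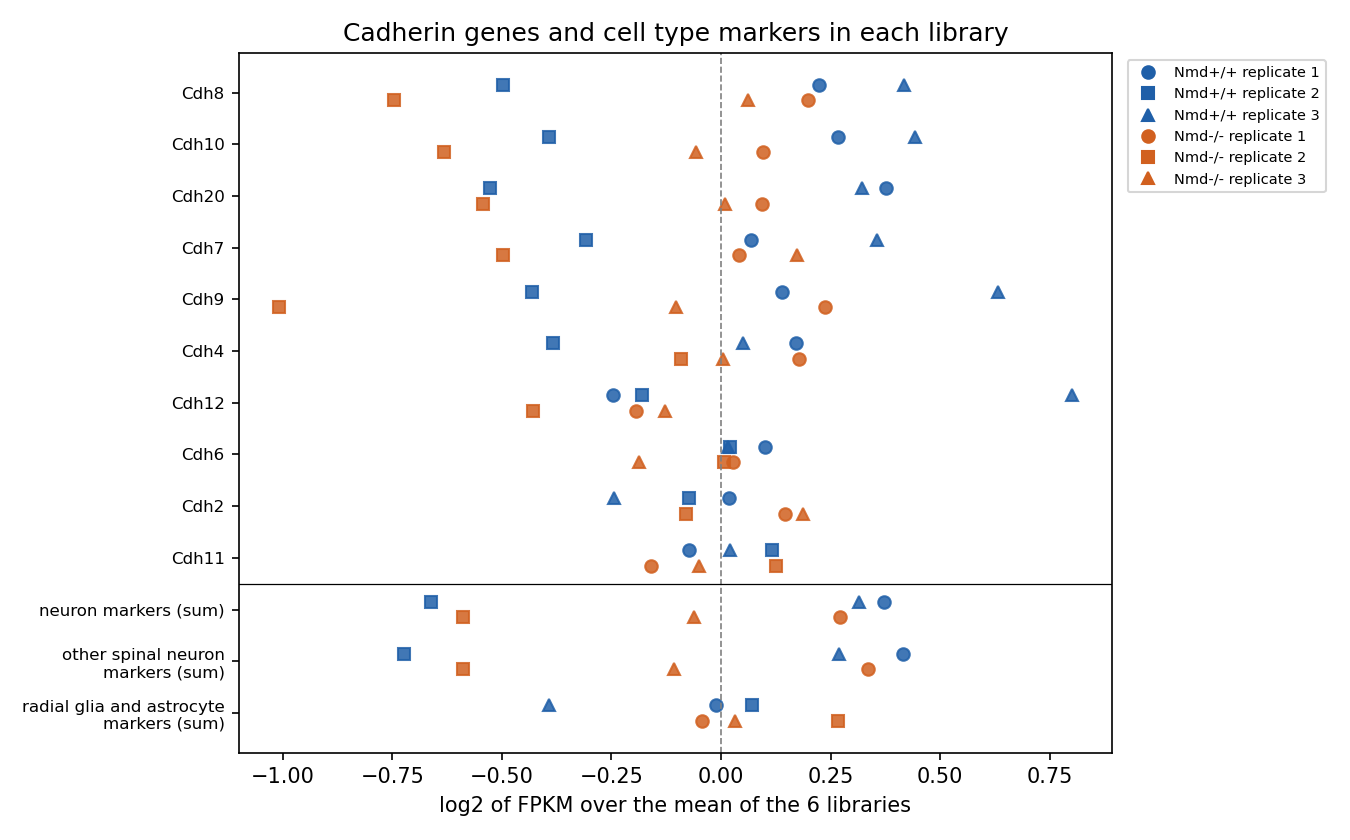
Level of each cadherin gene and of 3 summed marker lists in each library, as log2 of FPKM over the mean of the 6 libraries. Blue is Nmd+/+ and orange Nmd-/-, and squares are the libraries numbered 2. Cdh8, Cdh10, Cdh20, Cdh7 and Cdh9 share the low squares of both neuron marker sums, and Cdh11 has its squares above the mean.

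Likeness of pattern and likeness of sequence did not always go together. Likeness was measured as the root-mean-square difference of mean-centred log2(FPKM + 1) over the 6 libraries, given as a description. Of the 45 pairs of members, Cdh9 and Cdh10 were closest (0.089), followed by Cdh10 and Cdh20 (0.090) and Cdh8 and Cdh10 (0.097). Cdh9 and Cdh10 are also close in sequence. Their closeness in pattern holds for this scale only, because the added 1 compresses low genes. In FPKM Cdh9 spanned 3.12-fold over the 6 libraries and Cdh10 2.11-fold. Cdh8 and Cdh11, of the same specificity group and 70.1% identical, were the farthest apart of all pairs (0.48). Cdh6 was closer to Cdh11 (0.13) than to its relatives Cdh9 (0.28) and Cdh10 (0.33). Cdh8 was the only member to span at least 1 on the log2(FPKM + 1) scale, which compresses low genes such as Cdh9 and Cdh12, and outside the cadherins the genes most like it were Myt1l, a neuronal zinc finger gene (0.019), Syngr3, a synaptic vesicle gene (0.032), and Kcnip1, a potassium channel interacting gene (0.032).

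Annotated promoter windows of genes that were low in the same libraries differed in base composition. RefSeq promoters (250 bases before to 50 after the start, GRCm38.p6) were matched for 7 members. Those of Cdh8 and Cdh10 are shown because their levels moved together while their base composition was far apart. Capitals mark CG dinucleotides, and both read 5′ to 3′ on the strand of the gene.
Cdh8: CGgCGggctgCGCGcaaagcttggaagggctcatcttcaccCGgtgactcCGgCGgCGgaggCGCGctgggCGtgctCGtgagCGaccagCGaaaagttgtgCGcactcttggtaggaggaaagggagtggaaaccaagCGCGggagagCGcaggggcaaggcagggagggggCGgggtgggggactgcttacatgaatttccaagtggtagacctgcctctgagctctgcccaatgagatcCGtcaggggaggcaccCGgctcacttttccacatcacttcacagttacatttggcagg
Cdh10: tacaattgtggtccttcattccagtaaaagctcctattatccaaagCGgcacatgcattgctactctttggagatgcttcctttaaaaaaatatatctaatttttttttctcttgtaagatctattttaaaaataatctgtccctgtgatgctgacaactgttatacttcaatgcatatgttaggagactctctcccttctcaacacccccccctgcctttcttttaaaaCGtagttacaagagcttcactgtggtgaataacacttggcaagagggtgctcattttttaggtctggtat
The window of Cdh8 (chr8:99416422-99416721, minus strand) held 21 CG dinucleotides and was 62.3% G and C. That of Cdh10 (chr15:18820079-18820378, plus strand) held 2 and was 37.7% G and C. The median over 32851 promoters of the same length was 7, with 24.8% holding at least 21 and 23.3% holding at most 2. Cdh20 had 18 CG dinucleotides and Cdh9 had 8, and the windows matched for Cdh7 had 18, 19 and 4. The window of Cdh10 lies inside the gene, which begins at 18818947, and those of Cdh7 lie inside the gene that begins at 109982431. That of Cdh9 (chr15:16728665-16728964) lies apart from the locus given above, before its start at 16778101. Which start these cultures used was not measured for any member.

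The tested cadherins outside the 10 followed the replicate number as well. Of 8 other classical cadherins 4 were tested, and 0 of 4 passed between genotypes. All 4 passed the F-test of replicate number (28.6% of all genes) and were below the other libraries in both numbered 2. Cdh18, a type II neuronal cadherin, measured 7.42, 3.99 and 8.13 FPKM in Nmd+/+ and 6.40, 3.45 and 4.95 FPKM in Nmd-/-. Cdh24, the most abundant of them, was at 6.95 ± 3.22 and 6.30 ± 1.97 FPKM, Cdh22 at 2.86 ± 1.17 and 2.41 ± 0.65 FPKM, and P-cadherin (Cdh3) at 1.804 ± 0.730 and 2.18 ± 1.17 FPKM (SD, n = 3 each, Nmd+/+ first). The endothelial cadherin Cdh5 did not exceed 0.604 FPKM and E-cadherin (Cdh1) 0.429 FPKM. Cdh19, a cadherin of Schwann cell precursors, went the other way, with 3.92 FPKM in Nmd+/+ replicate 2, 0.615 FPKM in Nmd-/- replicate 2 and at most 0.0133 FPKM in the other 4 libraries.

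The partners of cadherins at the junction were read from a further list. Of 15 catenins and junction linkers 14 were tested, and 0 passed between genotypes. Means were higher in Nmd-/- for 12 of 14, where 8189 of 14611 genes were higher. The median log2 difference of this list was 0.12 against 0.02 over all genes. β-Catenin (Ctnnb1), which binds the cadherin tail, measured 161, 157 and 140 FPKM in Nmd+/+ and 164, 158 and 158 FPKM in Nmd-/-. The δ-catenin relative Arvcf was at 24.3 ± 3.6 and 29.96 ± 3.76 FPKM, vinculin (Vcl), which links catenins to actin, at 18.8 ± 4.9 and 23.2 ± 5.1 FPKM, and nectin 2 (listed as Pvrl2) at 14.9 ± 3.0 and 17.1 ± 1.1 FPKM (SD, n = 3 each). In the F-test of replicate number 4 of 14 passed, near the 28.6% of all genes. Of 12 genes for enzymes that cleave cadherins and for subunits of such enzymes, 0 passed between genotypes. Means were higher in Nmd-/- for 10 of these 12 (8189 of 14611 genes). The sheddase Adam10 was at 63.1 ± 5.6 and 72.4 ± 10.8 FPKM, the propeptide convertase Furin at 6.28 ± 1.29 and 7.36 ± 1.37 FPKM, and the γ-secretase subunit gene Aph1a at 19.1 ± 3.6 and 21.97 ± 2.25 FPKM (SD, n = 3 each).

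Transcription factors that mark motor columns and pools were measured beside them. Of 13 genes 9 were tested, and 0 passed between genotypes. In Nmd-/- 4 had higher and 5 lower means, and 7 of 9 passed the F-test of replicate number (28.6% of all genes). Foxp1, which marks limb motoneurons, was the most abundant at 37.9 ± 4.0 and 35.8 ± 4.6 FPKM. The pool factor Etv1 was at 3.55 ± 0.86 and 2.93 ± 0.52 FPKM, Pou3f1 at 1.62 ± 0.49 and 1.19 ± 0.50 FPKM, and Esrrg, a marker of gamma motoneurons, at 12.6 ± 4.6 and 9.51 ± 2.33 FPKM (SD, n = 3 each). Among the motoneuron homeobox genes of the same list, Isl1 measured 1.69, 0.896 and 1.81 FPKM in Nmd+/+ and 1.75, 0.608 and 1.12 FPKM in Nmd-/-, again lowest in the libraries numbered 2. Mnx1 and Isl2 were near 0, as given above, and Lhx3 did not exceed 0.734 FPKM.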

How the data were processed

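RNA-seq of 6 libraries was deposited by the authors as FPKM per gene with 95% intervals and a status, in the Cufflinks layout, per the file headers. Named in the submitters' processing notes are Cufflinks 2.2.1, SAMtools 1.3, cutadapt 1.8, Trim Galore 0.4.0, FastQC 0.10.1 and the build GRCm38. The annotation release and use of strand were not given in the sources used here. No gene overlapping a cadherin locus exceeded 0.334 FPKM.

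Values were tested in R 4.3.3 with limma 3.58.1 (intensity trend, Benjamini-Hochberg over 14611 genes) on log2(FPKM + 1), with a mean of at least 1 FPKM and an accepted status. Fragments equivalent to an interval took each bound as 2 SDs from the value. Sequences were read and aligned with Biopython 1.88. The procedure was tested on simulated data.

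The members, lists and tests were chosen with earlier results of these data known. Named genes were all members, the 3 genes with the smallest p and the most abundant gene of each list of partners, and the 3 genes most like a member spanning at least 1. Chat, Mnx1, Isl2, Lhx3, Cdh1, Cdh5 and Cdh19 were named outside this rule, after their values were seen.

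Deviations of same-numbered libraries from group means correlated across genes at 0.82, 0.70 and 0.39, so the numbers were read as pairs; the pairing comes from the values, not a label.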

Additional observations from a re-analysis of the deposited data

How the results depend on the processing

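The genotype comparison gave 0 called genes and 0 of 10 called members under 14 alternatives. These were the replicate block, leaving out each library or replicate 2 of both genotypes, quantile normalization, scaling by median of ratios, no intensity trend, a filter at 5 FPKM or none, and a pseudocount of 0.1. Between 20 and 711 genes had an unadjusted p under 0.05 in limma in these settings. With the replicate block 0 genes passed, and it changed no call. Of 136 member differences 130 kept their sign. Cdh4 turned to -0.018 without replicate 2 of both genotypes. Leaving out single libraries moved Cdh4 between -0.077 and 0.19, Cdh7 between -0.24 and 0.052 (0.02 without Nmd+/+ replicate 3), Cdh8 between -0.46 and 0.076, and Cdh11 between -0.12 and 0.015. Cdh10 kept its sign between -0.50 and -0.082.

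The replicate-number test was less stable. It called 4173 genes and 4 of 10 members. With no filter on low values, which brought in 27711 genes, it called 0 genes and 0 members in limma (6348 genes and 4 members at an unadjusted p under 0.05; the cause was not tested). At a mean of at least 5 FPKM 2 members of the 6 tested passed, since 4 fell under the filter. Leaving out single libraries gave between 2281 and 6466 genes and between 2 and 6 members, and 2850 genes and 0 members passed without replicate 2 of both genotypes. Depth limits Cdh9 and Cdh12 most.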
